A study of Drosophila melanogaster with 2 samples.

Results

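The genes described here are the 290 transfer RNA (tRNA) genes on the nuclear chromosomes of Drosophila melanogaster, among 18164 annotated genes on the 6 assembled arms (X, 4 and both arms of chromosomes 2 and 3) once transposable elements were left out. They were taken by the biotype tRNA in the annotation, not by any measured value. Chromatin immunoprecipitation followed by sequencing mapped Jim, a zinc finger transcription factor with a C-terminal green fluorescent protein (GFP) tag, by means of an antibody against GFP. Whole larvae of the third instar, at the wandering stage, were used from a single stable transgenic line, strain jim-GFP, with both sexes mixed and the age given as unknown, so each value is a mixture over all larval tissues. There was 1 group, with 2 biological replicates numbered 1 and 3, and no larvae without the tagged protein were analysed here. A tRNA gene was called marked when the summit of a listed region lay within 500 bp of its start, which is the 5 prime end of the annotated gene. The pooled list, called on both replicates together, and the list of each replicate held 30000 regions each, and the IDR list held the 1476 strongest pooled regions, which passed the authors' threshold on irreproducible discovery rate. Neighbouring tRNA genes whose starts lay within 1000 bp of each other were counted as 1 locus, which gave 175 loci.

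Transfer RNAs carry amino acids to the ribosome and read codons through their anticodon. Their genes are transcribed by RNA polymerase III from a promoter that lies inside the gene: the A box and the B box are bound by TFIIIC, which places TFIIIB just upstream of the start. In flies as in other animals they are short, occur in many identical copies and often sit in clusters or inside introns of protein-coding genes.

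The sequences of 4 tRNA genes are shown, because families of identical copies differed in how many copies were marked, and because gene letters can be compared with the regions given later. They were read from the RefSeq Release 6 assembly, the same coordinates as dm6, and the capitals mark the anticodon. They were chosen after their values were seen.
tRNA:Pro-TGG-1-1 (chr3R:17618110-17618181, minus strand): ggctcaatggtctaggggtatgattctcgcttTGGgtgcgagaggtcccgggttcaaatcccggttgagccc
tRNA:Ala-AGC-2-11 (chr3R:19790972-19791044, plus strand): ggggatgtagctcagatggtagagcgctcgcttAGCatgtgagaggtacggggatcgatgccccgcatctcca
tRNA:Asp-GTC-1-5 (chr2L:8541761-8541832, plus strand): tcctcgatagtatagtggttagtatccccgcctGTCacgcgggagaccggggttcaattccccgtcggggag
tRNA:Lys-TTT-2-1 (chr3R:6819894-6819966, plus strand): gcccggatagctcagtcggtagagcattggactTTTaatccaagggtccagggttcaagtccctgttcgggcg
The first sequence is shared by 5 proline genes, of which the pooled list marked 4, replicate 1 marked 3 and replicate 3 marked 4. The second is shared by 11 alanine genes, of which 5 were marked in the pooled list and 8 in each replicate. The third is shared by 12 aspartate genes, of which the pooled list marked 6, replicate 1 marked 3 and replicate 3 marked 4. The fourth is shared by 5 lysine genes at 4 loci, of which 0 were marked in the pooled list or in either replicate.

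Many tRNA genes had a listed region at their start, and few had one of the IDR list. That list held only 1476 of the 30000 pooled regions. In the pooled list 136 of 290 tRNA genes (46.9%) were marked, where the same count over 13945 protein-coding genes gave 39.6%. Only 6 tRNA genes (2.07%) had an IDR summit, against 5.79% of protein-coding genes. By locus, 84 of 175 (48.0%, exact Clopper-Pearson interval 40.4% to 55.7%) had a pooled summit and 3 (1.71%, 0.355% to 4.93%) an IDR summit. All such intervals are at 95% and cover counting error only, and no test was run between gene classes, so no difference between them is called. The pooled share was 28.5% for 3261 noncoding RNA genes, 20.8% for 269 small nucleolar RNA genes and 14.2% for 268 pseudogenes, and 13 of 32 small nuclear RNA genes were marked. All 6 arms together had 20.5% of their positions within 500 bp of a pooled summit.

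The gap between tRNA and protein-coding genes was not the same in the 2 replicates. In replicate 1, 121 tRNA genes (41.7%) were marked and the protein-coding share was 42.0%. In replicate 3, 140 (48.3%) were marked and the protein-coding share was 35.8%. The tRNA share minus the protein-coding share was thus -0.320 percentage points in replicate 1, 12.5 points in replicate 3 and 7.28 points in the pooled list. Among as many of the strongest regions of each replicate as the IDR list held, 6 tRNA genes were marked in replicate 1 and 8 in replicate 3, with protein-coding shares of 6.06% and 5.32%. These were 2.07% and 2.76% of the tRNA genes.

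**Figure D1:**
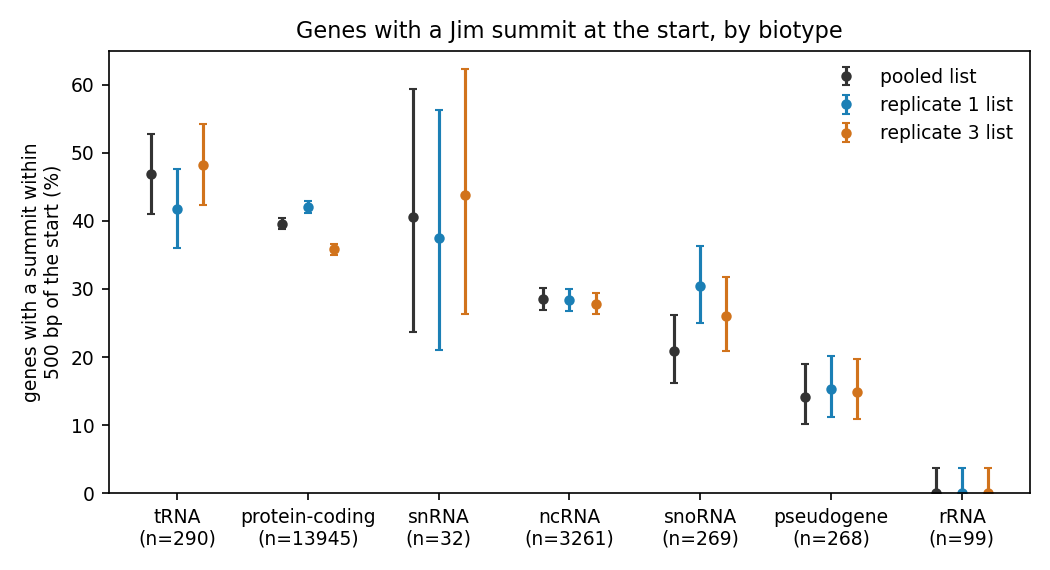
Share of genes of each biotype with a summit within 500 bp of the gene start (vertical axis, percent) in the pooled list and in each replicate, with exact 95% intervals that treat genes as independent although neighbours share regions. The tRNA genes stood at 46.9%, 41.7% and 48.3%, and protein-coding genes at 39.6%, 42.0% and 35.8%.

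Of the 136 tRNA genes marked in the pooled list, 79 (58.1%) were marked in both replicates, 19 in replicate 1 only, 27 in replicate 3 only and 11 (8.09%) in neither. The corresponding shares for the 5524 protein-coding genes marked in the pooled list were 55.8% in both and 7.19% in neither. Of the 154 tRNA genes without a pooled summit, 102 had none in either replicate, 52 had a summit in at least 1 replicate and 5 had a summit in both. The pooled list was called from the reads of both replicates, so these overlaps are not independent of it.

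Most regions at tRNA genes ranked below the IDR list, as did most of the 30000 pooled regions. The strongest region of the 84 marked loci had a median pooled rank of 9951, from 670 to 29823, where rank 1 is the strongest by the deposited signal value. Marked protein-coding genes had a median rank of 6951. The deposited signal, whose scale is set by the authors' caller, ran from 20.6 to 90.0 at the loci, with a median of 30.1. Marked protein-coding genes had a median of 34.1 and a maximum of 491.5, and all 30000 pooled regions a median of 26.4. In the replicates the median rank of marked tRNA genes was 9689 and 10586.5, and that of marked protein-coding genes 7949 and 7812, for replicates 1 and 3. Of the 84 loci, 31 lay in the first 5000 ranks and 42 in the first 10000. These medians cover only genes with a region, and were not tested.

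The summits that marked tRNA genes lay at all distances within the window, a minority of them inside the gene. The summit lay within 100 bp of the start for 55 of 136 marked genes (40.4%) and within 50 bp for 35 (25.7%), and it fell inside the gene for 23 (16.9%). The median distance was 167 bp, against 124 bp for marked protein-coding genes, of which 44.0% had the summit within 100 bp. Measured on the gene's strand, the summit lay upstream of the start for 83 of 136 marked genes (61.0%), with a median position of -35.5 bp. These counts are by gene. The 136 genes had 100 different strongest regions, so a shared summit is counted for each of its genes.

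Counting every pooled summit around every tRNA start gave 37 in the 100 bp just upstream and 31 in the first 100 bp downstream, or 12.8 and 10.7 per 100 genes. The next 100 bp downstream held 6 summits, or 2.07 per 100 genes, and the mean over the arms was 2.24 per 100 windows of that size. That bin held 5 summits in replicate 1 and 18 in replicate 3, or 1.72 and 6.21 per 100 genes. Clusters count the same summit for several genes. For the 107 tRNA genes that stood alone in their locus, which is free of this, the bins held 9 and 12 summits in the pooled list, 11 and 8 in replicate 1 and 10 and 10 in replicate 3. These are 8.41 and 11.2, 10.3 and 7.48, and 9.35 and 9.35 per 100 genes, so in both replicates the bins beside the start stood above the mean of the arms. Protein-coding genes had 10.1 and 8.83 per 100 genes in the pooled list, a peak of like position.

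**Figure D2:**
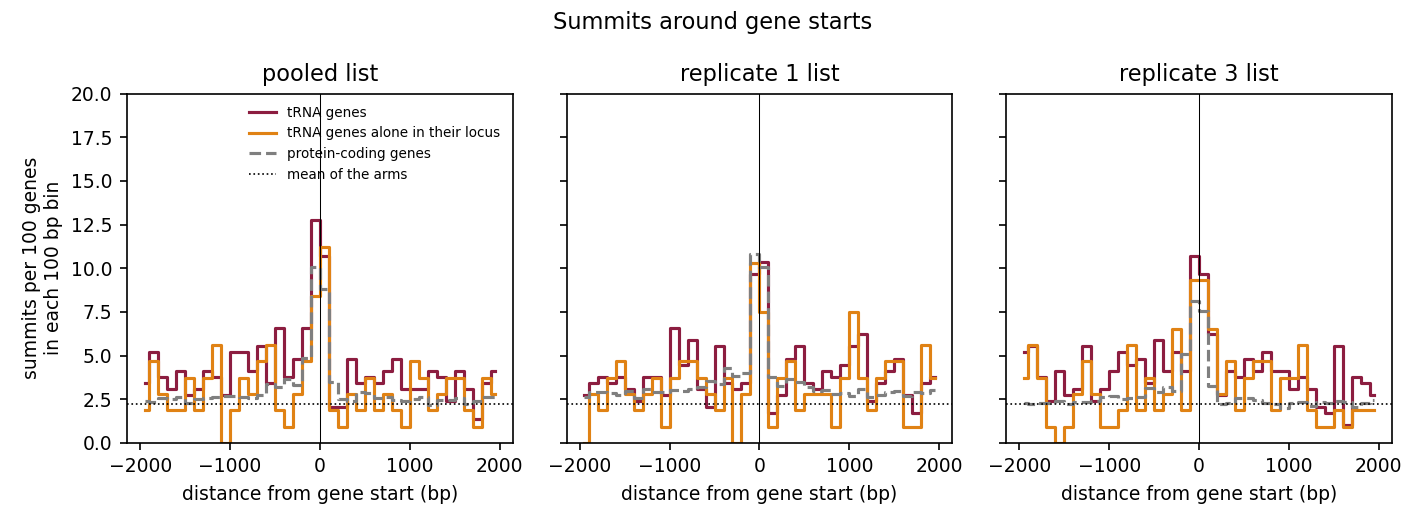
Summits per 100 genes in 100 bp bins (vertical axis) against distance from the gene start in bp on the gene's strand (horizontal axis), for all tRNA genes, tRNA genes alone in their locus and protein-coding genes, with the mean of the arms as a dotted line. In the pooled list tRNA genes peaked at 12.8 and 10.7 in the bins on either side of the start, against a mean of 2.24.

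The summits can be read against the genes they stand at. The 101 bases centred on the summit, on the strand of the tRNA gene, are given for 2 of the 25 strongest loci, with capitals for the bases of the tRNA gene. Both stand away from any protein-coding exon and within 60 bp of a tRNA start, and their genes are among those printed above.
Summit at tRNA:Ala-AGC-2-11 (chr3R:19790929-19791029, plus strand): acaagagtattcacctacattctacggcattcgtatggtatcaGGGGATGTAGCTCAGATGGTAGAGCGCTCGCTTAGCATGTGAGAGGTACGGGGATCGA
Summit at tRNA:Pro-TGG-1-1 (chr3R:17618148-17618248, minus strand): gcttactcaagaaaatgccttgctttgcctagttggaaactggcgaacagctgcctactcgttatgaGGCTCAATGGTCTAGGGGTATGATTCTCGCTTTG
The alanine window held 58 bases of its gene and the proline window 34. The summit is the middle base of each window, so it fell inside the alanine gene and in the upstream flank of the proline gene.

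The strongest marked tRNA locus of the pooled list, and of replicate 3, was a group of 3 glutamate genes on arm 2R. tRNA:Glu-TTC-1-1, tRNA:Glu-CTC-1-1 and tRNA:Glu-TTC-1-2 lie in an intron of mrj, which encodes a DnaJ-like cochaperone, between 16219374 and 16220123. Their IDR peak (16219903 to 16220162) had a pooled signal of 90.0 at rank 670, and its summit lay 19 bp upstream of tRNA:Glu-TTC-1-2. That summit lay 1760 bp from the nearest protein-coding transcription start site (TSS). The strongest region of the locus had a signal of 28.0 at rank 2406 in replicate 1 and of 46.9 at rank 714 in replicate 3. Each replicate had 2 regions at the locus, so these need not be at that summit. No other tRNA locus had one of the IDR summits at 250 bp or less from a tRNA start. In replicate 1 the locus with the strongest region was the pair tRNA:Arg-ACG-1-1 and tRNA:Lys-CTT-1-1 (2R, 6142165 to 6142444), in an intron of EcR, the ecdysone receptor gene, with a signal of 48.6 at rank 585. That summit lay at -456 bp from the start of tRNA:Arg-ACG-1-1. The nearest pooled summit, at rank 604, lay at -540 bp, so the pair was not marked in the pooled list, and it had no region in replicate 3. This pair was named after its values were seen. The loci led by tRNA:Trp-CCA-2-2, tRNA:Asp-GTC-1-4, tRNA:Trp-CCA-2-6 and tRNA:Glu-TTC-1-5 also ranked ahead of the glutamate genes of mrj in replicate 1, at 1186, 1213, 1350 and 2399.

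At the other 2 loci with an IDR peak the summit of that peak stood at a protein-coding promoter. The pair tRNA:Asp-GTC-1-4 and tRNA:Asp-GTC-1-5 (2L, 8541552 to 8541832) had a peak of signal 67.4 at rank 1382, with 37.2 at rank 1213 in replicate 1 and 34.0 at rank 1559 in replicate 3. Its summit lay 46 bp from a TSS of Sema1a, which encodes a transmembrane semaphorin of axon guidance, and 340 bp from tRNA:Asp-GTC-1-5. A second, lower pooled region of this locus, at rank 6990, had its summit 12 bp into tRNA:Asp-GTC-1-4 and at -150 bp from the start of tRNA:Asp-GTC-1-5. The pair tRNA:Trp-CCA-2-6 and tRNA:Gly-GCC-1-13 (2R, 21182678 to 21182926) had a peak of signal 66.6 at rank 1410, with 35.9 at rank 1350 in replicate 1 and 43.5 at rank 867 in replicate 3. Its summit lay 76 bp from a TSS of tud, which encodes the germ plasm protein Tudor, and 390 bp from tRNA:Gly-GCC-1-13. Both peaks sat just above the lowest signal of the IDR list, 65.3.

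Below the IDR threshold, 3 of the strongest loci lay far from any protein-coding TSS. tRNA:Thr-AGT-1-7 (FBgn0051471, 3R, 19802690 to 19802763), a threonine gene in an intron of bnl, the fibroblast growth factor gene of tracheal branching, had a pooled signal of 59.3 at rank 1801, with ranks of 4314 in replicate 1 and 1469 in replicate 3. Its summit lay 9 bp upstream of the start and 19159 bp from the nearest protein-coding TSS. tRNA:Asp-GTC-1-6 (FBgn0051602, 2L, 8620028 to 8620099), in an intron of Sema1a, had a signal of 58.2 at rank 1880, with ranks of 8294 and 1585 in replicates 1 and 3, and its summit was 184 bp upstream, in a region that ended at 8619973, before the gene. The pair tRNA:Val-CAC-2-6 and tRNA:Ala-AGC-2-11 (3R, 19790122 to 19791044) had a separate pooled region at each gene. The one at the alanine gene was the stronger, with a signal of 49.0 at rank 2737 and the summit 7 bp inside the gene. The strongest region of the locus ranked 3669 in replicate 1 and 1934 in replicate 3.

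Some others of the 25 strongest loci lay nearer to a protein-coding TSS. tRNA:Thr-AGT-1-4 (FBgn0051282, 3R, 16431940 to 16432013), inside CG31279, had a signal of 58.8 at rank 1830, with ranks of 3376 and 1863 in the replicates, and its summit was 76 bp upstream of the tRNA gene and 333 bp from a TSS of CG31279. The pair tRNA:Trp-CCA-2-2 and tRNA:Gly-GCC-1-9 (2R, 18639557 to 18639796) had a signal of 54.9 at rank 2154, with ranks of 1186 and 2291, and a summit between the 2 genes, 392 bp from a TSS of CG30122. tRNA:Arg-TCG-2-4 (FBgn0053551, 3R, 8862933 to 8863005) overlaps an exon of pyd, which encodes a ZO-1 homologue of cell junctions. It had a signal of 47.2 at rank 2995 with the summit 56 bp into the gene, while replicate 1 put it at rank 10120 and replicate 3 at rank 1175.

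The remaining loci of the 25 had pooled ranks between 2305 and 4231. On 2R they were the pairs tRNA:Lys-CTT-1-5 with tRNA:Arg-ACG-1-4 (rank 2305, the summit 34 bp into the arginine gene), tRNA:Ala-TGC-1-1 with tRNA:Ala-TGC-2-1 (3406), tRNA:Arg-CCT-1-2 with tRNA:Arg-CCT-1-3 (3609) and tRNA:Arg-TCT-1-1 with tRNA:Met-CAT-1-1 (3720), a run of 4 glutamate genes from tRNA:Glu-TTC-1-5 to tRNA:Glu-CTC-2-2 (2844), and the single genes tRNA:Ile-AAT-1-9 (3431) and tRNA:Leu-CAG-1-1 (3814). On 3R they were tRNA:Val-CAC-1-1 with tRNA:Pro-TGG-1-1 (2845), tRNA:Leu-CAA-2-3 (3085), tRNA:Pro-TGG-1-2 between 2 alanine genes (3523) and tRNA:Tyr-GTA-1-4 with tRNA:Tyr-GTA-1-5 (3895). On 3L they were 3 leucine genes ending with tRNA:Leu-CAG-1-4 (3268) and the initiator pair tRNA:iMet-CAT-1-4 with tRNA:iMet-CAT-1-5 (4231). tRNA:Gln-TTG-2-1 on X (4116), tRNA:Trp-CCA-2-1 on 2L (4222) and the 7-gene locus in ATP8A, described below, completed the set.

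Across these 25 loci, chosen by their pooled rank, every locus had a region in both replicates. The ranks ran from 1186 to 20097 with a median of 4442 in replicate 1, and from 714 to 17461 with a median of 2291 in replicate 3. The widest disagreement was at tRNA:Pro-TGG-1-2, which ranked 20097 in replicate 1 and 1673 in replicate 3. The summit lay within 100 bp of a tRNA start at 13 of the 25 and within 500 bp of a protein-coding TSS at 5. It was closer to the protein-coding TSS than to the tRNA gene at 3 loci, namely those near Sema1a and tud and the 7-gene locus in ATP8A. The marking rule itself favours summits near a tRNA start.

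**Figure D3:**
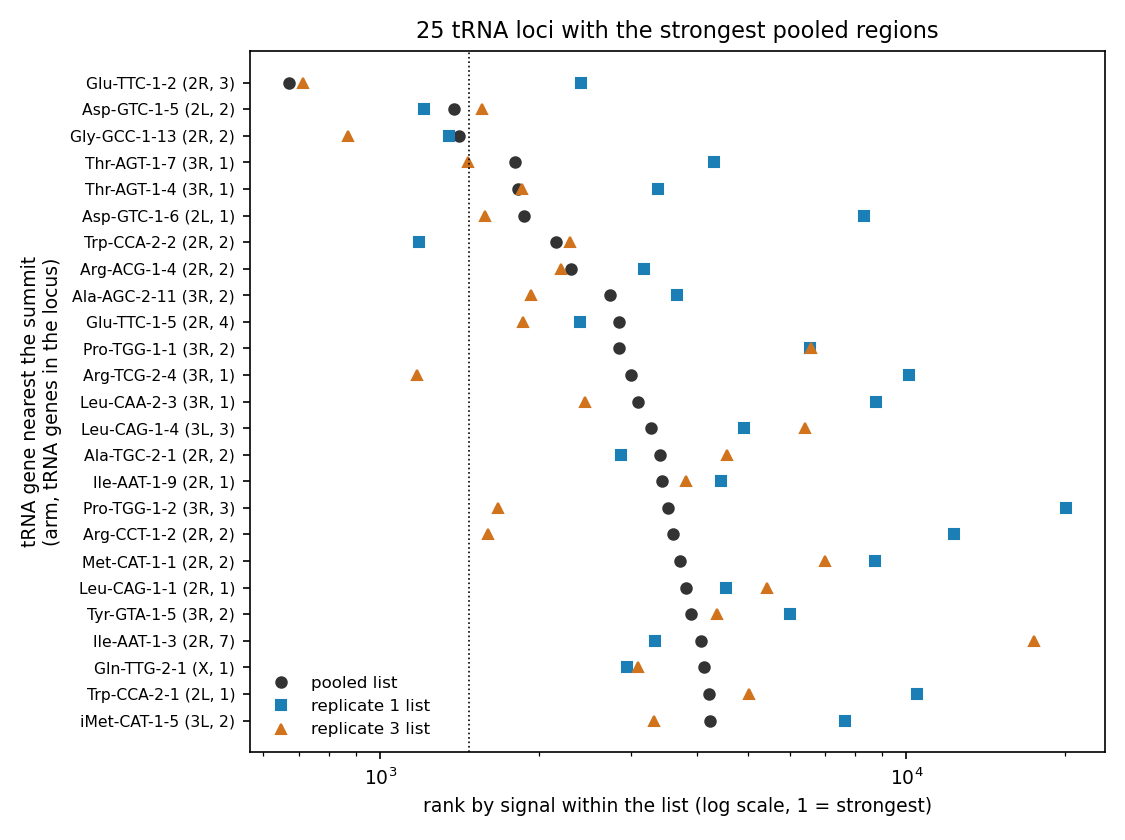
Rank by signal within the list (horizontal log axis, 1 is the strongest) of the strongest region within 500 bp of a tRNA start, for the 25 tRNA loci with the strongest pooled regions, named by the tRNA gene nearest the summit, with the arm and the number of tRNA genes. The dotted line is rank 1476, the last of the IDR list, and 3 loci have their pooled region before it.

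Loci of 1 tRNA gene and clusters are given apart, since a larger locus offers a wider stretch for a summit. Of 107 loci with a single gene, 35 (32.7%, 24.0% to 42.5%) were marked, 37 in replicate 1 (34.6%) and 45 in replicate 3 (42.1%). Of 68 loci with several genes, 49 (72.1%) were marked, and gene by gene this was 101 of 183 (55.2%). The 136 marked genes had 100 different strongest regions, of which 26 marked 2 genes and 5 marked 3. Loci of 2 genes were marked in 27 of 42 cases, loci of 3 in 13 of 16 and loci of 4 in 5 of 5.

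Of the 4 largest clusters, 3 had marked members in the pooled list. The 7 genes of isoleucine and leucine in an intron of ATP8A (2R, 13430282 to 13432794) had a single marked member, tRNA:Ile-AAT-1-3, by a region of rank 4076 whose summit stood 11 bp from a TSS of ATP8A and 449 bp from the tRNA gene. The 7 arginine and serine genes on X (14014814 to 14017284) had 3 marked members from a region of rank 9582, with its summit 57 bp upstream of tRNA:Ser-CGA-1-1. That locus ranked 9389 in replicate 3 and had no region in replicate 1. Of 6 cysteine and lysine genes inside Cht7, a chitinase gene (3L, 3095737 to 3097590), 4 were marked, the strongest region at rank 11515, with rank 6676 in replicate 1 and no region in replicate 3. The 6 genes tRNA:Asn-GTT-1-10 and tRNA:Arg-ACG-1-6 to tRNA:Arg-ACG-1-10 (3R, 8139533 to 8141042) had 0 marked members in the pooled list and in replicate 1, and a region of rank 17392 in replicate 3.

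Most tRNA genes lay away from protein-coding promoters. Of the 290 genes, 167 stood over 2000 bp from any protein-coding TSS, 91 between 500 and 2000 bp and 32 within 500 bp. The marked shares in the pooled list were 46.7%, 45.1% and 53.1%. Over all positions of the arms in the same classes the share within 500 bp of a pooled summit was 17.0%, 22.2% and 37.2%. The class over 2000 bp gave 40.1% against 15.6% in replicate 1 and 44.9% against 18.0% in replicate 3. With single-gene loci only, 23 of 62 in that class were marked in the pooled list (37.1%, 25.2% to 50.3%) and 24 (38.7%) in each replicate. Between 500 and 2000 bp the pooled list marked 10 of 36 such loci (27.8%), replicate 1 marked 10 and replicate 3 marked 15. Within 500 bp the counts were 2 of 9 (22.2%), 3 and 6. There the pooled and replicate 1 (33.3%) shares lay below those of all positions, 37.2% and 39.4%. The replicate 3 share (66.7%) lay above, against 34.0%. Of the 3 IDR loci, 2 had their summit at a protein-coding TSS.

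**Figure D4:**
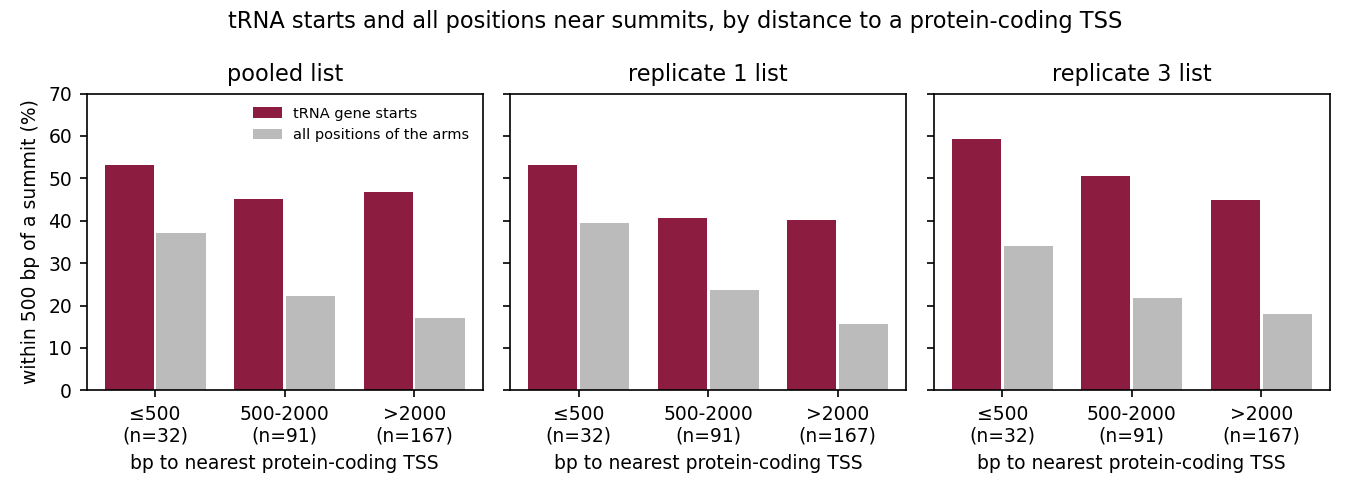
Percent within 500 bp of a summit (vertical axis) for tRNA gene starts and for all positions of the arms, by distance in bp to the nearest protein-coding TSS (horizontal axis), in 3 lists. Over 2000 bp from a TSS the tRNA bars stand at 46.7%, 40.1% and 44.9% and the bars of all positions at 17.0%, 15.6% and 18.0%.

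By place in the annotation, 75 of 156 tRNA genes between protein-coding genes (48.1%) and 55 of 127 in introns (43.3%) were marked. Of 7 that overlap an exon of some protein-coding transcript, 6 were marked. Among the summits that marked the 84 loci, 78 stood closer to a tRNA start than to a protein-coding TSS, and 12 lay within 500 bp of such a TSS. The count of 78 is largely fixed by the marking rule. Each summit was taken within 500 bp of a tRNA start, and most tRNA genes lay farther than that from a protein-coding TSS.

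Initiator methionine genes, which start translation, were the isotype with every member marked, while the genes of elongator methionine had a single marked member of 6. All 6 initiator genes, at 4 loci, had a pooled summit, 4 in replicate 1 and 5 in replicate 3. tRNA:iMet-CAT-1-4 and tRNA:iMet-CAT-1-5 had the strongest region, with a pooled signal of 41.0, 17.8 in replicate 1 and 25.3 in replicate 3. The others ranked 10019, 18801 and 27958, and tRNA:iMet-CAT-1-3 at rank 18801 had no region in either replicate. Isotypes are given only by counts, and the 6 initiator genes share 4 loci.

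Some isotypes with a high marked share in the pooled list are given next, where the share of all tRNA genes was 46.9%. They are not the largest isotypes. Glutamate had 13 of 19 genes marked, with 7 in replicate 1 and 14 in replicate 3. Tryptophan had 6 of 8 and phenylalanine 6 of 8, where replicate 1 gave 6 and 2 and replicate 3 gave 5 and 4. Alanine had 9 of 17, with 12 in replicate 1 and 13 in replicate 3, and threonine had 9 of 17, with 9 and 8. No isotype was tested against another.

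For the other isotypes the marked genes were 10 of 26 for arginine, 9 of 22 for leucine, 9 of 20 for serine, 7 of 20 for glycine, 7 of 19 for lysine, 8 of 17 for proline and 6 of 15 for valine. They were 6 of 14 for aspartate, 4 of 12 for glutamine, 4 of 11 for isoleucine, 4 of 10 for asparagine, 5 of 10 for tyrosine, 4 of 7 for cysteine and 3 of 5 for histidine. Some of these counts differed by over 1.5 times with a replicate alone. Replicate 1 marked 4 cysteine genes and replicate 3 marked 0, the histidine counts were 1 and 3, those of asparagine 2 and 4 and those of leucine 10 and 14. The gene of selenocysteine tRNA, tRNA:SeC-TCA-1-1, which inserts the amino acid selenocysteine at a recoded stop codon, had no pooled region and a region of rank 26278 in replicate 1 only.

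**Figure D5:**
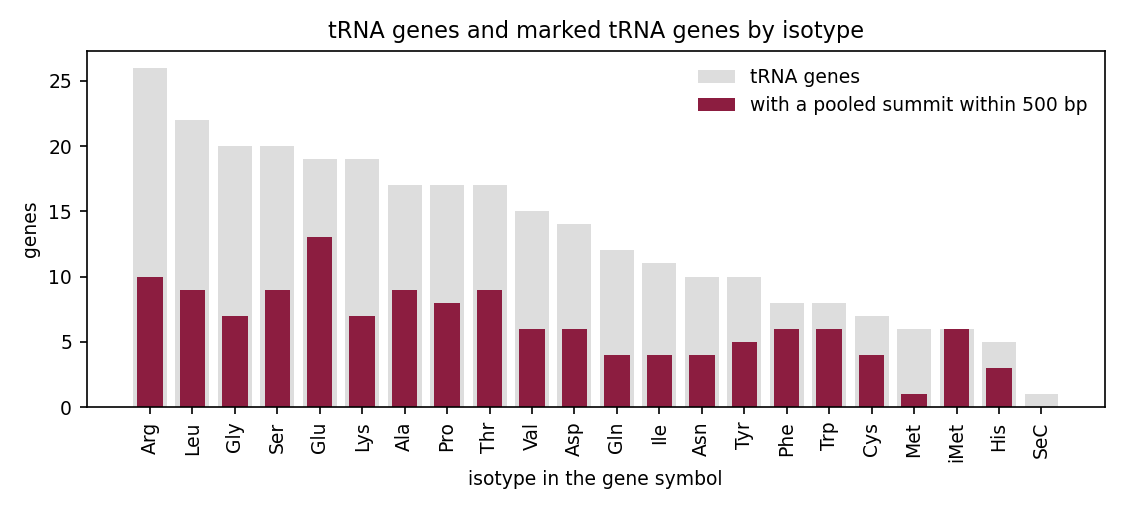
Number of tRNA genes of each isotype (grey bars, vertical axis) and of those with a pooled summit within 500 bp of the start (red bars). The initiator genes (iMet) are marked at 6 of 6, the elongator methionine genes (Met) at 1 of 6.

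Genes with the same letters were not marked alike. The 290 genes held 84 different spliced sequences, and 25 of these occurred in at least 5 copies, 189 genes in all. In 4 of the 25 families every copy was marked, in 20 some were, and in 1, tRNA:Lys-TTT-2, none was. Replicate 1 alone marked every copy in 2 families, tRNA:Thr-AGT-1 and tRNA:Trp-CCA-2, and no copy in 2, tRNA:Lys-TTT-2 and the 9 copies of tRNA:Glu-CTC-3. Replicate 3 alone marked every copy in 2, tRNA:Glu-TTC-1 and tRNA:Leu-CAG-1, which has 8 copies, and no copy of tRNA:Lys-TTT-2. The families fully marked in the pooled list were tRNA:Thr-AGT-1 with 7 copies, tRNA:Glu-TTC-1 with 6, tRNA:Trp-CCA-2 with 6 and tRNA:iMet-CAT-1 with 5. Within tRNA:Thr-AGT-1 the pooled ranks still ran from 1801 to 26288, and 7 of its copies were marked in replicate 1 and 4 in replicate 3. For tRNA:Trp-CCA-2 they ran from 1410 to 4850.

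Identical copies draw reads that fit more than 1 place, and the sources used here do not give how such reads were treated. Of 38 genes with a unique sequence 12 were marked in the pooled list (31.6%), of 63 with 2 to 4 copies 31 (49.2%), of 120 with 5 to 9 copies 63 (52.5%) and of 69 with 10 or more copies 30 (43.5%). In the same order, replicate 1 marked 36.8%, 38.1%, 48.3% and 36.2%, and replicate 3 marked 39.5%, 42.9%, 57.5% and 42.0%. The low share of unique genes was thus less marked in the single replicates. The part of reads shared among copies in the marks was not tested.

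The B box of the internal promoter was searched on the gene's strand by 1 form of its core, the exact letters GGTTCGA. None of the genes printed above holds these letters, so a gene without them is not shown to lack a B box. GGTTCGA was present in 145 of 290 tRNA genes, of which 64 were marked in the pooled list (44.1%), against 72 of the 145 without it (49.7%). These shares were 41.4% and 42.1% in replicate 1, and 49.7% and 46.9% in replicate 3, where the order was reversed. TGGC, the start of many A boxes, lay in the first 20 bases of 116 genes, of which 61 were marked (52.6%), against 75 of 174 without it (43.1%). Within 50 bp of the summit, on either strand, GGTTCGA lay at 13 of the 84 strongest summits of marked loci (15.5%) and at 0.693% of all 30000 pooled summits. It lay at 12 of the 42 with the summit within 100 bp of a tRNA start and at 1 of the 42 farther away. The full B box consensus, GGTTCGA with any base and then TCC after it, lay at 9 of the 84, at 15 of all pooled summits and at 0 of 1476 IDR summits, and 10 of those 15 had a tRNA start within 500 bp. The 84 summits were taken because they lay near a tRNA start, and 145 of 290 tRNA genes hold GGTTCGA. A window that overlaps such a gene can hold these letters for that reason alone. The shares thus cannot show whether the summits favour the B box.

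A run of 8 A bases and the repeat GAGAG were counted the same way on both strands. The A run was found at 10 of the 84 tRNA summits (11.9%), 8.03% of all pooled summits and 17.4% of IDR summits. GAGAG was found at 11 of the 84 (13.1%), 15.3% and 25.5%. These matches describe letters, not sites, and the shares were not tested against each other.

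Of the other genes that RNA polymerase III transcribes, snRNA:7SKa had the strongest region. This copy of the 7SK RNA gene, whose product holds the elongation factor P-TEFb inactive (FBgn0065099, 3R, 7474553 to 7474996), had an IDR peak 44 bp into the gene with a pooled signal of 109.3 at rank 391, above every marked tRNA locus of the pooled list. It ranked 608 with a signal of 48.0 in replicate 1, behind the arginine and lysine locus in EcR at rank 585, and 346 with a signal of 61.3 in replicate 3. RNaseMRP:RNA, the RNA of a ribosomal RNA processing enzyme, had a pooled region at rank 7353 with the summit 33 bp into the gene, snRNA:U6:96Ac, a spliceosomal RNA, had rank 15553 and RNaseP:RNA, the RNA of the enzyme that trims tRNA 5 prime ends, had rank 23882. In all 4 of 10 such genes outside the 5S array were marked in the pooled list, where the share was 39.6% for protein-coding genes. It was 36.7% for all annotated genes other than tRNA genes. The other 6 of the 10 were 2 of U6, U6atac, both 7SL genes of the signal recognition particle and snRNA:7SKb. Of 96 5S ribosomal RNA genes, near-identical copies in tandem, 0 were marked in any list, and the part that reads shared among copies play in this count was not tested.

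Genes for the proteins that make and use tRNAs were counted at any annotated TSS. Of 39 such genes, 21 (53.8%) had a pooled summit within 500 bp of one, where the share of all protein-coding genes was 42.8%, and 4 (10.3%) had an IDR summit, where it was 6.96%. Of 20 cytoplasmic aminoacyl-tRNA synthetases, which load the amino acid, 13 had a pooled summit and 1 an IDR summit. That was AspRS, with a pooled signal of 114.2 at rank 346 and ranks of 432 and 481 in replicates 1 and 3. The next were IleRS at rank 2871 and GluProRS at rank 2965.

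Of 15 subunits and factors of RNA polymerase III, 5 (33.3%) had a pooled summit, where the share of all protein-coding genes was 42.8%. In replicate 1, 6 of the 15 had a summit, where the protein-coding share was 45.6%. In replicate 3, 8 (53.3%) had one against 39.2%, so the order was reversed there. The IDR peaks were at 2 TFIIIB genes, 13.3% of the 15 against 6.96% of all protein-coding genes. Trf, Polr3B, Polr3D, Polr3G, Polr3K and Polr1C had no region in any list. Bdp1 had a pooled signal of 95.2 at rank 572, with ranks of 1286 and 436 in replicates 1 and 3, and Brf had 67.8 at rank 1365, with ranks of 743 and 1165. Maf1, the repressor of the polymerase, had rank 12906 and no region in replicate 1. Of 4 processing and modification genes 3 had a pooled summit, led by La, which binds the 3 prime end of new tRNA transcripts, with an IDR peak of signal 67.1 at rank 1387 and ranks of 1299 and 1459 in the replicates. RNaseZ, which cuts tRNA 3 prime ends, had no region in any list.

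At the 500 bp limit, the marked genes with the most distant nearest summit were tRNA:Ser-CGA-1-3 at 484 bp and tRNA:Glu-CTC-3-4 at 474 bp. The closest unmarked genes were tRNA:Ala-AGC-2-9 at 518 bp and tRNA:Arg-TCG-2-2 at 524 bp.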

How the data were processed

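Chromatin immunoprecipitation with an antibody against GFP was sequenced from 2 replicates of whole larvae. The deposited files are narrowPeak lists on dm6 whose column 7 is the signal of each region on the scale of the authors' caller. Replicate lists were made from the reads of 1 replicate and a control, the pooled list from both and a control, and the IDR list from the other 3, per the text notes deposited with them. The sources used here name no aligner, caller or IDR threshold. Read depth is unknown, so no detection floor is stated. Per the labels, the library size range of replicate 1 was 175 to 275 bp and that of replicate 3 was 200 to 325 bp. The median region width was 210 bp in the list of replicate 1 and 260 bp in the others. Lists on dm3 were not used.

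The summit is the region start plus column 10, and regions were ranked by signal within each list. Genes came from Ensembl release 115 (BDGP 6.54) and sequence from RefSeq Release 6. The length of the 6 arms was 133.9 Mb, and all listed regions on them ended within the assembly. Only replicate 3 had a region off the arms, 1 in all, which was not used. A gene matched to a list took its strongest summit within 500 bp. Protein-coding genes were counted at the gene start, and at any annotated TSS beside the genes of the tRNA machinery. Shares of positions count every base of the arms. The labels do not say that the replicates came from separate cultures beyond calling them biological. The members and lists were chosen with earlier results of these data known. Named loci are those with an IDR summit, then those with the strongest pooled regions up to 25, the largest loci and the genes beside the 500 bp limit; the A run and GAGAG, the printed genes and the families were picked after values were seen. No test was run. The marking was checked on simulated summits. Alternatives were the distance, each replicate alone, the 10000 strongest regions, the gene body, region intervals, genes away from other starts and other ways to join loci. Software was matplotlib 3.10.9, scipy 1.17.1, pandas 2.3.3 and numpy 2.4.6 under Python 3.11.15.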

Additional observations from a re-analysis of the deposited data

How the results depend on the processing

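The difference between tRNA and protein-coding genes depended on the list and on the stretch searched. The difference of 7.28 percentage points was -0.320 to 12.5 with either replicate alone, 5.30 at a distance of 250 bp, 16.0 at 1000 bp, 0.697 with the 10000 strongest pooled regions and 9.52 with region intervals. It was -11.8 when any base of the gene could be near the summit, where 8425 protein-coding genes counted. The stretch searched under that rule grows with the length of the gene. The 10000 strongest regions marked 71 tRNA genes, 42 loci and 3317 protein-coding genes. With tRNA genes lacking another gene start within 1000 bp, 88 of 190 were marked (46.3%). IDR counts were small: 1 tRNA gene at 1 locus at 250 bp, 12 genes at 6 loci at 1000 bp, 2 genes at 1 locus away from other starts, and 6 to 8 genes at 4 to 5 loci among the strongest regions of a single replicate. The median rank at marked loci was 9176 at 250 bp, 10894 at 1000 bp and 10017 to 10832 with a replicate alone. The median distance to the summit was 158.5 to 196 bp with a replicate alone. The cause of these shifts was not tested. No paired analysis was possible because there is 1 group and no comparison between groups. Read depth is unknown, so a tRNA gene without a region is not shown to lack the protein.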

Other observations

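The share of pooled regions near a tRNA start is given by rank. A tRNA start lay within 500 bp of 3 of the 1476 IDR summits (0.203%), 31 of the 3524 pooled regions at ranks 1477 to 5000 (0.880%), 20 of the 5000 at ranks 5001 to 10000 (0.400%), 29 of the 10000 at ranks 10001 to 20000 (0.290%) and 33 of the 10000 at ranks 20001 to 30000 (0.330%). Over all 30000 pooled regions the share was 0.387%.

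Marked tRNA genes are also given by arm. The pooled list marked 58 of 98 genes on 2R (59.2%), 24 of 48 on 3L (50.0%), 36 of 79 on 3R (45.6%), 12 of 41 on 2L (29.3%) and 6 of 24 on X. On X, replicate 1 marked 3 and replicate 3 marked 7. The shares in replicates 1 and 3 were 52.0% and 57.1% on 2R, 37.5% and 43.8% on 3L, 46.8% and 49.4% on 3R and 29.3% and 41.5% on 2L. Shares of other genes on each arm are not given here, so these values are not shown to be particular to tRNA genes. Arm 2R also carried 33 of the 84 marked loci. Of the 91 loci without a pooled region, 53 had none in either replicate and 5 had regions in both.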
